A study of Mus musculus with 72 samples.

Results

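The genes described are 10 members of the integrated stress response: Atf4, Atf3, Ddit3, Nupr1, Trib3, Chac1, Sesn2, Asns, Psat1 and Phgdh. They were taken by symbol from the gene count tables of liver and of the suprachiasmatic nucleus (SCN), where the master clock of the hypothalamus lies. The liver table lists 22823 genes and holds all 10 members, each of which passed the filter on low counts that left 20249 genes for testing. The SCN table lists 15759 genes and holds 9 members, without Trib3. The libraries came from C57BL/6J mice of 8 to 12 weeks that ate freely either a diet lacking methionine and choline (MCD) or its control of equal energy content for 11 days. Both groups spent 10 days in 12 h of light and 12 h of dark and then 1 day in constant darkness, when they were killed at circadian time (CT) 0, 4, 8, 12, 16 or 20. A tissue, diet and time together made 1 of 24 groups, and each group held libraries of 2 males and 1 female per the sample labels, so that 18 libraries stood for each diet in each tissue. The protocol text names male mice alone. Both nutrients were absent from the MCD diet, so the lack of methionine and the lack of choline cannot be told apart here.

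In the integrated stress response, kinases that sense amino acid shortage, unfolded proteins in the endoplasmic reticulum, double-stranded RNA or haem shortage phosphorylate the translation initiation factor eIF2. General protein synthesis then falls, while the mRNA of the transcription factor ATF4 is translated more, a step that mRNA counts do not measure. ATF4 raises the transcription of genes that make, import and charge amino acids and of genes that modulate or end the response, and a diet short of an essential amino acid is a textbook trigger of the pathway in liver.

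Levels are given as CPM, counts scaled to the size of the library, after scaling between the libraries of a tissue, and differences as log2 changes with the standard error (SE) of the fit. A gene is said to have changed where the quasi-likelihood F test of edgeR, fitted over the 36 libraries of a tissue and adjusted by Benjamini-Hochberg over all genes tested there, gave an adjusted p under 0.05. Liver libraries held 52.6 to 86.7 M counts in total and SCN libraries 23.3 to 79.8 M. The liver libraries held high levels of the hepatocyte markers, with a sum of 6 markers (Alb, Apoa1, Ttr, Serpina1a, Cps1 and Fgb) of 56994 CPM or more. The SCN libraries held all 8 SCN neuron markers looked for, with a sum of 1909 CPM or more, and 2 of the 6 hepatocyte markers, with a sum of 27.3 CPM or less. Of the control libraries at CT8, both males carry one name without a number in each tissue; the letters a and b tell them apart here (control CT08 a, control CT08 b). In liver, the library control CT08 a lay at the level of the MCD libraries for most members, so liver results are also given without it.

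Among the promoters of the 10 members, 4 held a match to the C/EBP-ATF response element, TGATGNAA on either strand, in the 250 bases before the RefSeq start of the gene. Of 32851 promoter windows of that length, 3.45% held such a match. The 4 stretches upstream of the start that hold the match are shown because all of these genes rose in liver. They are RefSeq sequences of build GRCm38.p6, written 5′ to 3′ on the strand of the gene, and the capitals mark the match, which reads TGATGNAA on the printed strand in Asns and on the other strand in Atf3, Chac1 and Nupr1.
Atf3, chr1:191183348-191183458, minus strand: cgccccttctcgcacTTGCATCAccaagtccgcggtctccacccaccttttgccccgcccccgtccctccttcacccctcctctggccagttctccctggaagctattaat
Chac1, chr2:119351034-119351227, plus strand: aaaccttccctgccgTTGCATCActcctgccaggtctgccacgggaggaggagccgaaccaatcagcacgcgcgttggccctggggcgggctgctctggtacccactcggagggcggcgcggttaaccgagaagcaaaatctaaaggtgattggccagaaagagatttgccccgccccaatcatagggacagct
Asns, chr6:7693224-7693319, minus strand: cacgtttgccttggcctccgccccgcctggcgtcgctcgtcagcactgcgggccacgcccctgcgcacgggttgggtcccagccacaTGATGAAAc
Nupr1, chr7:126625485-126625595, minus strand: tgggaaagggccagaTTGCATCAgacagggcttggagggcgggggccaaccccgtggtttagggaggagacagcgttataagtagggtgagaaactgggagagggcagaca
The match in Atf3, Chac1 and Nupr1 has the same 8 letters. Counted from the start, it spans positions -110 to -103 in both Atf3 and Nupr1, -193 to -186 in Chac1 and -23 to -16 in Asns. The ATF/CRE motif TGACGTCA (1.55% of windows, either strand) had no match in the windows of the 10 members. A match is a description of the letters and no evidence of binding.

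The first comparison asked which members differed between the diets in liver over the whole day. Of the 10 members, 9 rose on MCD and none fell, while 46.6% of the 20249 genes tested were called, 25.3% higher and 21.2% lower. The rises ran from 1.19-fold for Atf4 to 13.7-fold for Atf3, and Phgdh was the member that did not pass the test. The median change of the 10 members was 1.77 log2, against 0.02 log2 over all genes tested.

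Atf4 (chr15:80255184-80257541, plus strand of GRCm38) encodes the transcription factor at the centre of the response. Its level in liver ran from 67.2 to 138 CPM (median 94.5) in the 18 control libraries and from 68.2 to 152 CPM (median 105) in the 18 MCD libraries. The groups overlapped over most of their range, and 5 MCD libraries lay above the highest control, which was the male control CT16 1. Mean levels were 92.4 ± 20.7 CPM on control and 109 ± 27.9 CPM on MCD (SD, n = 18 each). Atf4 rose by 0.25 ± 0.08 log2 (SE, 1.19-fold, edgeR adjusted p = 0.0126), the smallest rise among the members that were called. The call was lost without the libraries numbered 2 (0.22 log2, adjusted p = 0.0991).

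Atf3 (chr1:191170296-191218039, minus strand) encodes a stress-induced transcription factor of the same bZIP class. It lay at 0.505 to 9.66 CPM on control (median 1.16) and at 5.04 to 62.5 CPM on MCD (median 18.7). A single library, control CT08 a at 9.66 CPM, reached into the MCD range, and the next highest control lay at 2.68 CPM, so that 16 of 18 MCD libraries were above all controls. From 1.67 ± 2.07 CPM on control to 21.6 ± 14.4 CPM on MCD (SD, n = 18 each), Atf3 rose by 3.78 ± 0.31 log2 (13.7-fold, edgeR adjusted p = 8.14e-10). Without control CT08 a the control mean was 1.20 ± 0.565 CPM (n = 17), the rise was 4.16 ± 0.25 log2 (edgeR adjusted p = 2.19e-12), and the groups did not overlap.

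Ddit3 (chr10:127290774-127296288, plus strand), also known as CHOP, encodes a transcription factor linked to cell death when stress persists. Control libraries held 3.01 to 8.56 CPM (median 4.71) and MCD libraries 6.34 to 32.0 CPM (median 13.8). The 3 MCD libraries within the control range were MCD CT08 1, MCD CT08 3 and MCD CT12 3, and the highest control was again control CT08 a. Its mean went from 5.07 ± 1.35 to 14.7 ± 6.71 CPM (SD, n = 18 each), a rise of 1.48 ± 0.14 log2 (2.78-fold, edgeR adjusted p = 4.72e-09). The annotated ends of Ddit3 overlap Gm4189 and Mars on the opposite strand over short stretches, and the annotation holds another protein-coding record named Ddit3 on the same strand (chr10:127290829-127293753), which is not in the count tables, so the reads of these records may be shared.

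Nupr1 (chr7:126623249-126630861, minus strand) encodes a small stress-induced nuclear protein. Its control libraries lay at 0.627 to 7.73 CPM (median 1.18) and its MCD libraries at 4.13 to 47.8 CPM (median 14.4). As for Atf3, the highest control was control CT08 a and the next lay far lower, at 2.85 CPM, and 14 of 18 MCD libraries were above all controls. Nupr1 went from 1.72 ± 1.61 to 17.8 ± 13.3 CPM (SD, n = 18 each) and rose by 3.29 ± 0.28 log2 (9.81-fold, edgeR adjusted p = 1.44e-09). Without control CT08 a it rose by 3.57 ± 0.24 log2 (edgeR adjusted p = 2.01e-11) and the groups did not overlap. Atf3 and Nupr1 were the members with every MCD library then above every control (0.691% of all genes), against no member and 0.0889% of genes with all libraries. Control CT08 a was singled out with its level of these genes known, so this separation follows from the choice and is given as a description only.

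Trib3 (chr2:152337422-152344032, minus strand) encodes a pseudokinase that ATF4 and CHOP induce and that dampens their activity. It was measured at 1.19 to 23.5 CPM on control (median 3.37) and 9.10 to 81.6 CPM on MCD (median 28.2). The highest control libraries were from CT4 and CT8, and 12 of 18 MCD libraries lay above the highest control, control CT08 b. Means were 6.23 ± 6.17 and 32.4 ± 19.4 CPM (SD, n = 18 each), and Trib3 rose by 2.75 ± 0.22 log2 (6.75-fold, edgeR adjusted p = 4.58e-10).

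Chac1 (chr2:119351229-119354381, plus strand) encodes an enzyme that breaks down glutathione. Control libraries lay at 0.202 to 8.14 CPM (median 2.95) and MCD libraries at 0.555 to 15.6 CPM (median 4.75). The groups overlapped widely, and 3 MCD libraries, all from males, lay above the highest control, control CT12 1. Chac1 rose by 0.95 ± 0.28 log2 (1.94-fold, edgeR adjusted p = 0.00633), from 2.97 ± 1.86 to 5.63 ± 3.53 CPM (SD, n = 18 each). The call was lost without the libraries numbered 1 (0.73 log2, adjusted p = 0.147).

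Sesn2 (chr4:132492032-132510501, minus strand) encodes sestrin 2, a stress-induced protein that restrains the growth kinase complex mTORC1. It ran from 6.00 to 14.7 CPM on control (median 9.05) and from 8.02 to 19.3 CPM on MCD (median 13.0), and 6 MCD libraries lay above the highest control, control CT08 a. Sesn2 rose by 0.53 ± 0.10 log2 (1.44-fold, edgeR adjusted p = 0.000138), with means of 9.61 ± 2.64 and 13.7 ± 3.37 CPM (SD, n = 18 each). The annotation places Gm12981 on the same strand within Sesn2, so counts of the overlap are uncertain.

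Asns (chr6:7675169-7693254, minus strand) encodes asparagine synthetase, a standard target of ATF4 under amino acid shortage. It lay at 0 to 8.29 CPM on control (median 1.19) and at 3.18 to 24.4 CPM on MCD (median 7.32). The control library at 0, a count of 0 that allows up to 0.0474 CPM, was female, and the 6 female controls reached 0.767 CPM while the 12 male controls began at 0.979 CPM. Because control CT08 a was at 8.29 CPM, 6 of 18 MCD libraries were above all controls, and 16 of 18 were without it. Asns went from 1.81 ± 1.96 to 8.81 ± 5.70 CPM (SD, n = 18 each) and rose by 2.69 ± 0.32 log2 (6.44-fold, edgeR adjusted p = 2.07e-07).

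Psat1 (chr19:15904678-15947337, minus strand) encodes phosphoserine aminotransferase, the middle enzyme of serine synthesis. Its range was 0.469 to 8.48 CPM on control (median 2.31) and 5.14 to 15.3 CPM on MCD (median 10.1), and 14 of 18 MCD libraries were above the highest control, control CT04 2. Psat1 rose by 2.06 ± 0.29 log2 (4.17-fold, edgeR adjusted p = 2.63e-06), from 3.04 ± 2.50 to 10.4 ± 3.21 CPM (SD, n = 18 each).

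Phgdh (chr3:98313170-98339990, minus strand) encodes the enzyme that starts serine synthesis. In liver it was close to the detection limit, at 0 in 6 control and 3 MCD libraries, where a count of 0 allows 0.0432 to 0.0610 CPM. The highest values were 1.25 CPM on control, in control CT08 a, and 1.78 CPM on MCD, and the medians were 0.127 and 0.350 CPM. With means of 0.179 ± 0.285 and 0.431 ± 0.425 CPM (SD, n = 18 each), the change was 1.35 ± 0.66 log2 (95% interval 0.06 to 2.64). That interval, 1.96 SE to each side, is narrower than the F test allows, whose unadjusted p was not under 0.05. The change did not pass (edgeR adjusted p = 0.0960). It passed when 1 of 3 control libraries was left out: 1.78 log2 without control CT08 a (adjusted p = 0.0291), 2.36 without control CT04 2 (0.0159) and 2.22 without control CT12 3 (0.0310), so this call turned on single libraries.

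**Figure D1:**
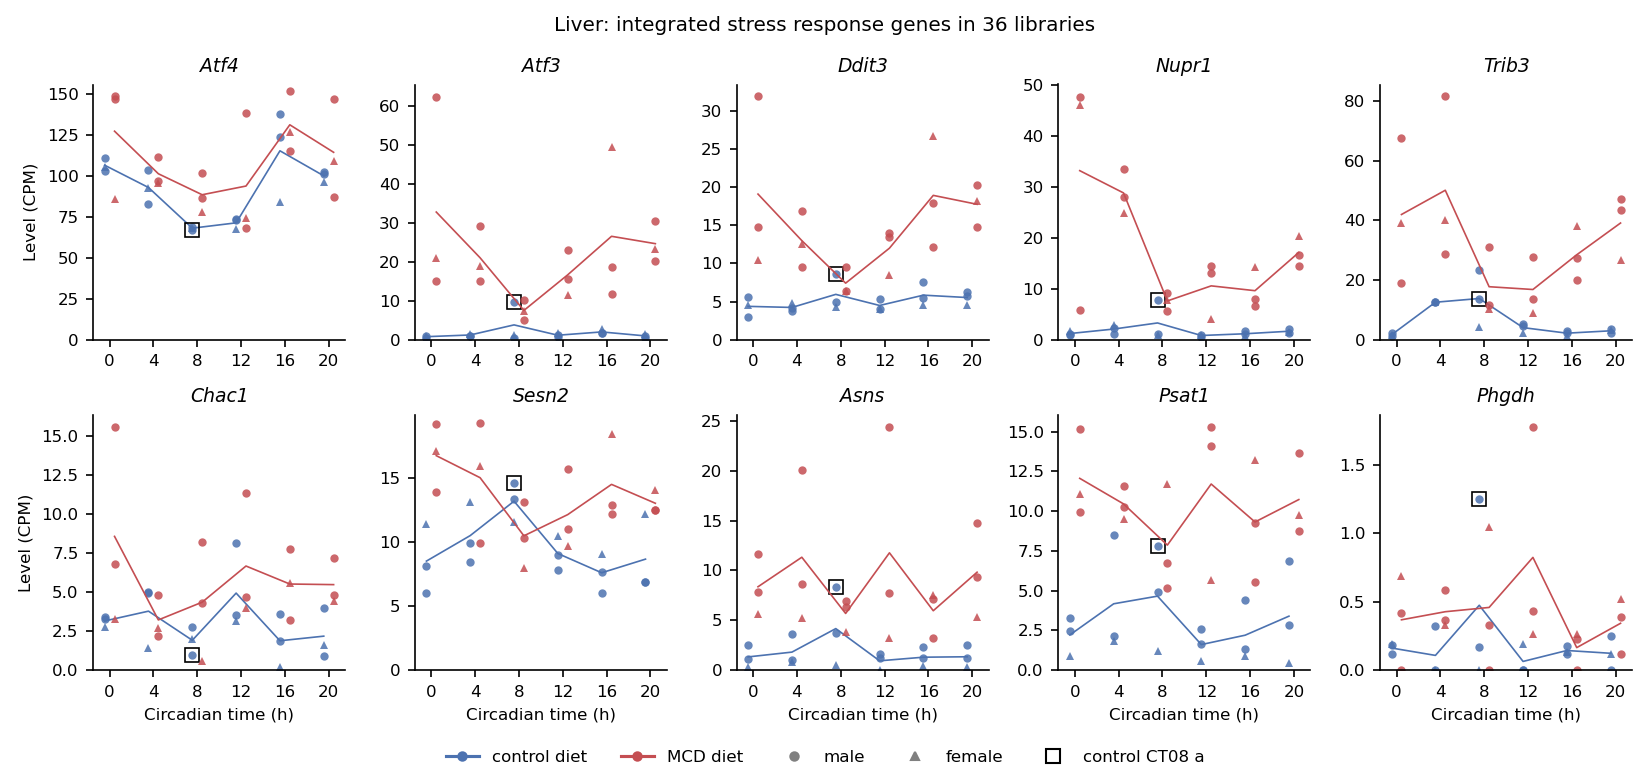
Level in CPM (y axis, from 0, its scale differing between panels) of each of the 10 members in the 36 liver libraries against circadian time in h (x axis). Blue marks are control and red marks MCD libraries, circles males and triangles females, lines join the means of the 3 libraries per time, and the black square marks control CT08 a, which lay at 9.66 CPM for Atf3 where the other controls reached 2.68 CPM.

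The liver libraries fell into 2 kinds by the mitochondrial transcript mt-Nd6, a low kind of 8 control and 13 MCD libraries (41.6 to 119 CPM) and a high kind of 10 control and 5 MCD libraries (414 to 925 CPM). Fitted within each kind alone, the same 6 members were called in both, Atf3, Ddit3, Nupr1, Trib3, Asns and Psat1, as were 25.3% of genes in the low and 27.9% in the high kind. Their changes in the low and high kind were 3.36 and 4.37 log2 for Atf3, 1.48 and 1.41 for Ddit3, 3.11 and 3.09 for Nupr1, 2.38 and 2.63 for Trib3, 2.54 and 2.69 for Asns, and 2.21 and 1.46 for Psat1. The call was lost within both kinds for Chac1 (1.27 log2, edgeR adjusted p = 0.0601, and 0.73, 0.124), Sesn2 (0.41, 0.0899, and 0.58, 0.0605) and Atf4 (0.30, 0.0606, and 0.13, 0.348). In a model of all 36 libraries that held the kind as a further term, 9 members were called, as were 44.1% of genes.

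Scaling between libraries sets the zero of these changes. Scaled by library totals alone, the median of all genes shifted by 0.27 log2 towards MCD, against 0.02 with the TMM scaling used here, and 87.3% instead of 54.4% of the called genes were higher. Relative to the median gene, Atf4 rose by 0.23 log2 under both scalings and Chac1 by 0.94. Not set against the median gene, Atf4 rose by 0.25 log2 with TMM and by 0.50 with library totals alone. Phgdh passed with library totals alone (1.60 log2, edgeR adjusted p = 0.0419).

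Markers of other liver cells moved with the diet beside these genes. All 8 macrophage markers were called higher on MCD, with a sum of 295 to 758 CPM on control and 415 to 1005 CPM on MCD. The control library with the highest macrophage sum was control CT08 a, the one at the MCD level of Atf3 and Nupr1, and it also had the highest stellate cell and fibroblast sum (443 CPM) and the lowest hepatocyte sum (81539 CPM) of the controls. Of the neutrophil markers, 3 of 4 were measured and all 3 were called higher (sum 0 to 2.13 CPM and 0 to 10.1 CPM), while 2 of 5 measured stellate cell and fibroblast markers and 2 of 4 endothelial markers were called higher and none lower. With the TMM scaling, 5 of 6 hepatocyte markers were called lower (sum 81539 to 120160 CPM and 56994 to 120634 CPM), and 4 of 5 erythrocyte markers were called lower (130 to 452 CPM and 93.7 to 273 CPM). Hepatocyte markers exceeded macrophage markers by far in all 36 libraries. In bulk tissue, fewer cells of a type and less RNA per cell cannot be told apart, and the part of cell composition in the members' changes was not tested.

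The diets were next compared at each time, with 3 libraries per diet. The members called higher numbered 7 of 10 at CT0 (6.57% of genes called higher), 5 at CT4 (9.46%), 0 at CT8 (0.548%), 6 at CT12 (8.08%), 7 at CT16 (6.52%) and 5 at CT20 (5.7%). No member was called lower at any time, where 6.02%, 8.71%, 0.751%, 7.13%, 5.99% and 5.6% of genes were; at CT12, for example, 15.2% of genes were called in either direction. Atf3, Ddit3, Nupr1, Trib3 and Asns were each called at the 5 times other than CT8, Psat1 at CT0, CT12 and CT16, and Sesn2 at CT0 and CT16, whereas Atf4, Chac1 and Phgdh were called at none. The median change of the 10 members was 2.35, 1.76, 0.63, 2.47, 2.13 and 1.79 log2 at CT0 to CT20, and without control CT08 a that at CT8 was 1.12 log2.

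The changes were largest at CT0 for several members. Atf3 went there from 0.789 ± 0.264 to 32.8 ± 25.9 CPM (SD, n = 3 each), a rise of 5.40 ± 0.83 log2 (edgeR adjusted p = 0.000194). At the same time Nupr1 went from 1.22 ± 0.459 to 33.2 ± 23.7 CPM, a rise of 4.76 ± 0.74 log2 (edgeR adjusted p = 0.000204, n = 3 each). Trib3 at CT0 went from 1.68 ± 0.479 to 42.0 ± 24.3 CPM and rose by 4.64 ± 0.59 log2 (edgeR adjusted p = 3.13e-05, n = 3 each). In these 3 genes the lowest of the 3 MCD libraries at CT0 lay above the highest control. Asns had its largest rise at CT12, by 3.78 ± 0.80 log2 from 0.931 ± 0.837 to 11.8 ± 11.2 CPM (edgeR adjusted p = 0.00315, n = 3 each), and all 3 MCD libraries were again above the controls. At CT0, 7 of the 10 members had all MCD libraries above all controls, as did 14.3% of genes.

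At CT8 the 3 control libraries disagreed with each other. Atf3 was at 9.66 CPM in control CT08 a, 0.534 in control CT08 b and 1.26 in control CT08 3, and at 5.04, 10.2 and 7.36 CPM in the MCD libraries 1 to 3. Nupr1 was at 7.73, 1.15 and 1.01 CPM in these controls and at 5.74, 9.24 and 7.89 CPM in the MCD libraries. For both genes control CT08 a lay among the MCD libraries and the other controls lay below all of them. For Asns (8.29, 3.69 and 0.499 CPM in the controls a, b and 3) and Psat1 (7.83, 4.93 and 1.20 CPM) control CT08 a was highest too, while for Atf4 (67.2, 69.2 and 68.1 CPM) the 3 controls were alike and below the MCD libraries (102, 86.3 and 77.8 CPM). Atf4 was the 1 member with all MCD libraries above all controls at CT8, a pattern of 6.57% of genes, and its diets overlapped at each of the other times. With all libraries edgeR called 0 of 10 members at CT8 and 0 had an unadjusted p under 0.05, and DESeq2 also called 0, with 1 at an unadjusted p under 0.05. Without control CT08 a, 2 members were called, as were 5.86% of genes (2.72% higher): Atf3 rose by 3.15 ± 0.66 log2 (edgeR adjusted p = 0.00506) and Nupr1 by 2.83 ± 0.66 log2 (edgeR adjusted p = 0.0107). Sesn2 had a negative value at CT8 both with this library (-0.33 log2) and without it (-0.21), and neither passed. Phgdh changed sign, from -0.37 log2 with it to 2.23 log2 without it, and passed in neither fit.

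Over the 6 times 30 of 60 tests of a member passed, against 11.8% of the tests of all genes, and 32 without control CT08 a, against 14.8%. Leaving out 1 library of the time in question ended 10 of the 30 calls in edgeR, those of Asns, Psat1, Sesn2 and Trib3. At CT0, Sesn2 was lost without control CT00 2 (adjusted p = 0.0724) or MCD CT00 1 (0.0737), and Asns without control CT00 1 (0.0791), control CT00 3 (0.0595) or MCD CT00 3 (0.0533). Psat1 at CT0 was lost without the same 3 libraries (0.0682, 0.0746 and 0.0563). At CT4, Trib3 was lost without control CT04 2 (0.0503) or MCD CT04 1 (0.0689), and Asns without control CT04 1 (0.0893) or MCD CT04 1 (0.0669). At CT12, Trib3 was lost without MCD CT12 2 (0.0877). At CT16, Sesn2 was lost without control CT16 1 (0.0964) or MCD CT16 3 (0.108), Asns without control CT16 1 (0.0916), control CT16 3 (0.0757) or MCD CT16 3 (0.212), and Psat1 without the same 3 (0.130, 0.112 and 0.212). At CT20, Asns was lost without control CT20 1 (0.0599) or control CT20 3 (0.0521). The calls of Atf3, Ddit3 and Nupr1 at single times held when any 1 liver library was left out, but not when all libraries of a replicate number were. Without those numbered 1, for example, the calls at CT0 were lost for Atf3 (4.55 log2, adjusted p = 0.0801, against 5.40 log2 with all libraries), Ddit3 (1.31 log2, 0.0877, against 2.09) and Nupr1 (4.22 log2, 0.102, against 4.76), while the share of all genes called at CT0 went from 12.6% to 0.411%. In all, 27 of the 30 calls were lost without at least 1 replicate number. In these 54 losses every change kept its direction, at 0.548 to 1.39 times its log2 value with all libraries (median 0.964).

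A rhythm was called where a 24 h cosine and sine fitted over the 6 times of 1 diet passed the test. On control, 2 of 10 members passed, Trib3 and Atf4 (17.8% of genes). Trib3 had the widest control rhythm, with a fitted range from trough to peak of 2.65 log2 and a peak at CT 6.85 (edgeR adjusted p = 0.000309). By library, control Trib3 was at 12.6, 12.5 and 12.6 CPM at CT4 and at 13.8 (a), 23.5 (b) and 4.14 CPM at CT8. It was at 1.19 to 2.15 CPM at CT0 and at 1.25 to 3.06 CPM at CT16. The CT4 libraries were all above those of CT0, CT16 and CT20, with no overlap. Control Atf4 had a fitted range of 0.68 log2 and a peak at CT 21.0 (edgeR adjusted p = 0.0124), a call lost without the libraries numbered 2 (adjusted p = 0.0848) or 3 (0.0671).

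On MCD, 4 of 10 members passed: Ddit3, Nupr1, Trib3 and Atf4 (28.2% of genes). Trib3 on MCD peaked at CT 23.2 with a fitted range of 1.56 log2 (edgeR adjusted p = 0.0151). Its MCD libraries were at 67.6, 19.2 and 39.2 CPM at CT0, at 81.6, 28.6 and 40.2 CPM at CT4, at 11.7, 31.3 and 10.4 CPM at CT8 and at 13.7, 27.8 and 9.10 CPM at CT12. The levels at CT8 and CT12 were mostly low and those at CT0 and CT4 mostly high, with overlap between them. Nupr1 on MCD peaked at CT 0.559 with a fitted range of 1.86 log2 (edgeR adjusted p = 0.0136), and Ddit3 at CT 20.1 with 1.20 log2 (edgeR adjusted p = 0.00361). Atf4 on MCD peaked at CT 20.5 (0.51 log2, edgeR adjusted p = 0.0468). Without control CT08 a, Atf3 passed as well (adjusted p = 0.0115, against 0.0767). Leaving out the libraries numbered 1, 2 or 3 in turn, 6 of the 18 on MCD each time, ended some of the MCD calls: Trib3 was lost without 1 (adjusted p = 0.424) or 3 (0.120), Nupr1 without 1 (0.278) or 3 (0.137), Ddit3 without 2 (0.0611) or 3 (0.0669) and Atf4 without 2 (0.615) or 3 (0.234). Atf4 was also lost with library totals alone (0.0582), without the sex term (0.0809), without the filter on low counts (0.0534) and where the model held the kind of library (0.0522). On control, DESeq2 called Sesn2 as well (adjusted p = 0.0429).

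The difference in rhythm between the diets passed for 1 of 10 members, Trib3 (edgeR adjusted p = 0.00365, against 4.87% of genes). The time means show it: control Trib3 was at 1.68, 12.6, 13.8, 4.07, 2.21 and 3.00 CPM at CT0 to CT20, and MCD Trib3 at 42.0, 50.1, 17.8, 16.9, 28.5 and 39.2 CPM. The diets were thus nearest at CT8, where control was high and MCD low, and farthest apart at CT0. Without control CT08 a the adjusted p was 0.00462. The difference was lost without the libraries numbered 1 (adjusted p = 0.205) or 2 (0.0623) and held without those numbered 3 (0.0342). The other members, Ddit3 and Nupr1 included, did not pass this test in edgeR (adjusted p of 0.0654 or more), while DESeq2 also called Atf3 (adjusted p = 0.0109, against 0.0654), and apart from Atf3 their rhythms were not shown to differ between the diets by either tool.

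Each group held 1 female, so the sex comparison rests on 6 females and 12 males per diet. The diet effect differed between the sexes for 1 of 10 members, Psat1 (1.77% of genes). In females Psat1 ran from 0.469 to 1.86 CPM on control and from 5.68 to 13.2 CPM on MCD, and the groups did not overlap. In males it ran from 1.30 to 8.48 CPM on control and from 5.14 to 15.3 CPM on MCD, and the groups overlapped. The rise was larger in females by 2.08 ± 0.45 log2 (edgeR adjusted p = 0.0135). The control medians were 0.874 CPM in females and 3.06 CPM in males and the MCD medians 10.4 and 10.1 CPM, and the ranges of the sexes overlapped on both diets; the sexes were not tested within a diet. The call for Psat1 was lost without the libraries numbered 2, all male (1.62 log2, adjusted p = 0.392). For Asns, whose female controls were also low, the difference was 1.79 ± 0.60 log2 and did not pass in edgeR (adjusted p = 0.150), but did in DESeq2 (1.88 log2, adjusted p = 0.0221).

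**Figure D2:**
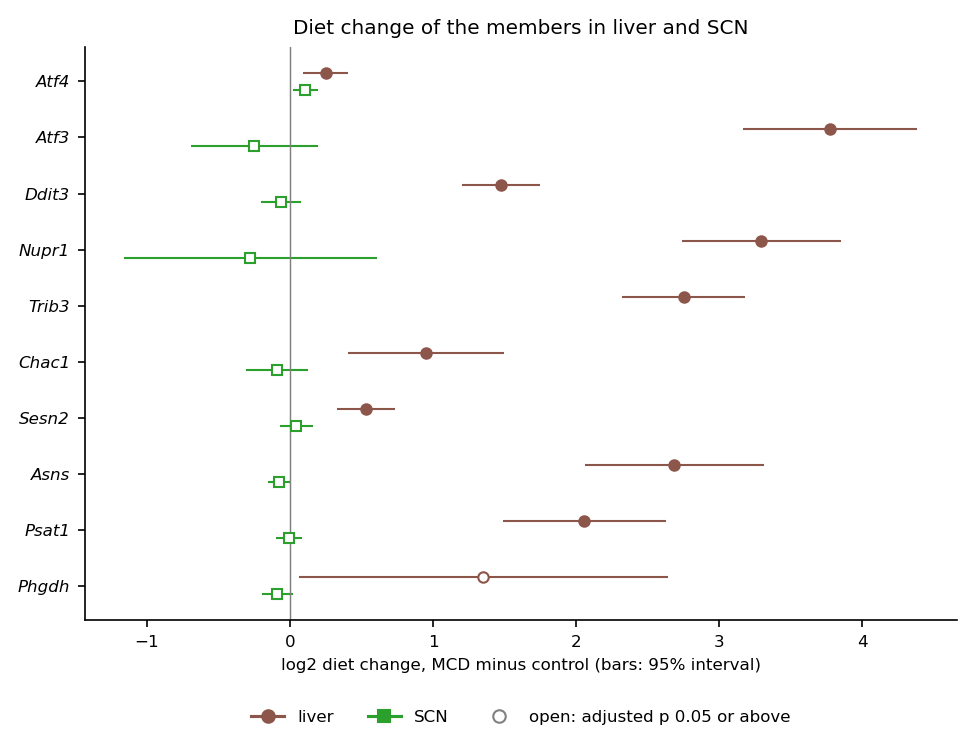
Log2 diet change, MCD minus control (x axis), of each member (y axis) in liver (brown circles) and SCN (green squares), with bars for the 95% interval and open marks where the adjusted p was 0.05 or above. In liver 9 of 10 marks are filled, from Atf4 at 0.25 to Atf3 at 3.78, whereas all 9 SCN marks are open, between -0.28 and 0.11.

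Levels per kb of exon put the members in order within liver. On control Atf4 was highest at 39.2 ± 8.77 CPM per kb (SD, n = 18), followed by Ddit3 at 2.96, Trib3 at 2.93, Sesn2 at 2.76 and Chac1 at 1.81 CPM per kb. Atf3, Psat1, Nupr1 and Asns came next at 0.773, 0.714, 0.683 and 0.661 CPM per kb, and Phgdh was lowest at 0.0719. Atf4 stood clear of the rest, while Ddit3, Trib3 and Sesn2, and likewise the 4 members from Atf3 to Asns, differed by less than their spread. On MCD the order below Atf4 (46.4 ± 11.8 CPM per kb) was Trib3 at 15.3, Atf3 at 10.0, Ddit3 at 8.57 and Nupr1 at 7.09, and then Sesn2, Chac1, Asns, Psat1 and Phgdh at 3.93, 3.44, 3.22, 2.43 and 0.173 CPM per kb. Trib3 to Nupr1 overlapped within their SD of 3.92 to 9.11 CPM per kb. Atf3 and Nupr1, among the lowest on control, thus reached the level of Ddit3 on MCD.

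Around the means of their groups of diet and time, some members varied together from library to library. The highest Pearson r between 2 members over the 36 liver libraries was 0.81, for Asns and Psat1, followed by 0.66 for Atf3 and Nupr1, and the lowest was -0.31, for Chac1 and Phgdh. These libraries share depth and scaling, and the values are descriptive. Sex was left in the deviations, and its part was not tested. Control CT08 a, included here, had the largest mean standardized deviation of the members (1.22). The deviations of Atf4 were set against those of the 9 other members, with 100000 permutations within groups (two-sided). Pearson r ran from -0.185 for Sesn2 to 0.465 for Chac1, and 0 of 9 passed after adjustment over the 9 relations. For Chac1 Pearson r of 0.465 had a raw p over 36 libraries below that of the other members (permutation p = 0.0252, adjusted 0.227), and Spearman rho was 0.436 (permutation p = 0.0356, adjusted 0.320). Without the 2 libraries farthest from the median of Atf4, r ran from -0.186 to 0.358 and again 0 of 9 passed. Within the low kind of library r ran from -0.355 to 0.617 (21 libraries) and within the high kind from -0.376 to 0.775 (15 libraries), given as a description, since the permutations possible within groups of the high kind were too few to pass.

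The genes outside the list whose level followed the mean standardized level of the members most closely over the 36 liver libraries were Gars (Pearson r = 0.944), Arhgef2 (0.915), Gdf15 (0.903), Scamp5 (0.903) and Chpf (0.900). Since these libraries span both diets and the members differed between them, the choice favours genes that differ too. The changes on MCD ran from 0.59 log2 for Gars, which encodes glycyl-tRNA synthetase, to 2.81 log2 for Gdf15, a stress hormone. On deviations from group means, which remove the diet, the highest were Gars (0.798), Tubgcp2 (0.785), Krt8 (0.770), Krt8-ps (0.767) and Krt18 (0.757). Without control CT08 a these were 0.747, 0.773, 0.736, 0.737 and 0.669 in the same order. Krt8 and Krt18 encode the keratin pair of hepatocytes, and Krt8-ps is a pseudogene of Krt8 with which it can share reads. The diet change of Tubgcp2 did not pass (0.06 log2, edgeR adjusted p = 0.469).

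Further genes of the pathway were taken as 6 lists with 63 genes, of which 62 were measured in liver. Of these, 39 were called higher and 5 lower, while 18 did not pass (25.3% of all genes higher, 21.2% lower), and their median change was 0.26 log2. The list of kinases and the eIF2 circuit had 5 of 14 genes higher and none lower, with a median of 0.04 log2. Its largest changes were in Eif2ak3, the kinase PERK of the endoplasmic reticulum (20.8 ± 7.40 to 30.5 ± 8.23 CPM, 0.56 ± 0.11 log2, edgeR adjusted p = 0.000136), and in Ppp1r15a, the phosphatase subunit GADD34 that ends the response (10.4 ± 2.26 to 13.6 ± 3.06 CPM, 0.40 ± 0.09 log2, 0.000367; SD, n = 18 each). Eif2ak3 lost its call within the low kind of library (0.61 log2, adjusted p = 0.0879) and Ppp1r15a within the high kind (0.12 log2, 0.470) and without the libraries numbered 3 (0.24 log2, 0.0824). Eif2ak4, the amino acid sensor GCN2, was at -0.10 log2 and did not pass.

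Among partner and related bZIP factors, 6 of 8 rose and 1 fell. Fos rose by 2.26 ± 0.19 log2 (edgeR adjusted p = 8.33e-10), from 0.236 to 1.22 CPM on control and 1.11 to 7.39 CPM on MCD. Jun rose by 1.88 ± 0.20 log2 (edgeR adjusted p = 5.66e-08), from 7.92 to 43.7 CPM on control and 17.8 to 97.5 CPM on MCD. Both encode subunits of the AP-1 factor, and for both the ranges overlapped in part. Cebpa, which encodes a factor of hepatocyte identity, fell by 0.25 log2 (adjusted p = 0.00587), a call that ended with library totals alone (0.00 log2).

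Of the targets for amino acid and one-carbon synthesis, 6 of 9 rose and 2 fell. Pycr1, which makes proline, rose by 2.14 ± 0.31 log2 (edgeR adjusted p = 3.23e-06; 0.308 ± 0.207 to 1.25 ± 0.528 CPM). Aldh1l2, a mitochondrial folate enzyme, rose by 2.12 ± 0.20 log2 (edgeR adjusted p = 2.67e-09; 0.822 ± 0.426 to 3.44 ± 1.21 CPM; SD, n = 18 each). Got1, an aspartate aminotransferase, fell by 0.83 log2 (adjusted p = 0.000979) and Shmt2, the mitochondrial serine hydroxymethyltransferase, by 0.37 log2 (adjusted p = 6.97e-06), so the direction was not shared by the whole list.

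Of 8 measured amino acid transporters, 6 rose and none fell. Slc7a11, the cystine transporter, was at 0 to 2.67 CPM on control (median 0.0253) and 0.182 to 8.16 CPM on MCD (median 0.819), and rose by 4.83 ± 0.60 log2 (edgeR adjusted p = 3.78e-07). Its control median lay below the 0.0443 to 0.0610 CPM that a count of 0 allowed for Phgdh in control liver libraries. The size of this rise is therefore uncertain. Slc7a11 overlaps a gene on the opposite strand. Slc7a1, a transporter of cationic amino acids, rose by 1.43 ± 0.19 log2 (edgeR adjusted p = 8.5e-07), from 1.43 ± 0.769 to 3.96 ± 2.15 CPM (SD, n = 18 each). Of 13 genes for tRNA charging and export (12 synthetases and Xpot), 10 rose and 1 fell. The largest rises there were small in fold and tight between libraries: Sars, seryl-tRNA synthetase, rose by 0.67 ± 0.06 log2 (edgeR adjusted p = 1.61e-09) and Gars by 0.59 ± 0.05 log2 (edgeR adjusted p = 1.99e-09). Gars lay at 34.6 to 53.5 CPM on control and at 50.3 to 73.5 CPM on MCD. Tars, threonyl-tRNA synthetase, fell by 0.57 log2 (adjusted p = 6.67e-08).

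Of the 10 other targets, 6 rose and 1 fell. Fgf21, a liver hormone of nutrient shortage, was at 0.401 to 16.7 CPM on control (median 1.17) and 13.3 to 134 CPM on MCD (median 35.8). Gdf15 was at 0.594 to 10.5 CPM on control (median 1.54) and 4.73 to 24.8 CPM on MCD (median 13.9). For both genes the groups overlapped at the edges of their ranges. Fgf21 rose by 4.56 ± 0.41 log2 (edgeR adjusted p = 3.01e-09) and Gdf15 by 2.81 ± 0.25 log2 (edgeR adjusted p = 2.27e-09). Vegfa, a vascular growth factor, fell by 0.36 log2 (adjusted p = 0.000177), a call lost with library totals alone (-0.11 log2, adjusted p = 0.0605). Eif2ak4 and the 5 genes that fell were named after their values were seen. With library totals alone, 55 of the 62 genes were called higher and 3 lower, against 52.5% and 7.61% of all genes. Within the low kind of library 23 were called higher (12.4% of all genes), within the high kind 28 (14.9%) and without control CT08 a 37 (25.8%).

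**Figure D3:**
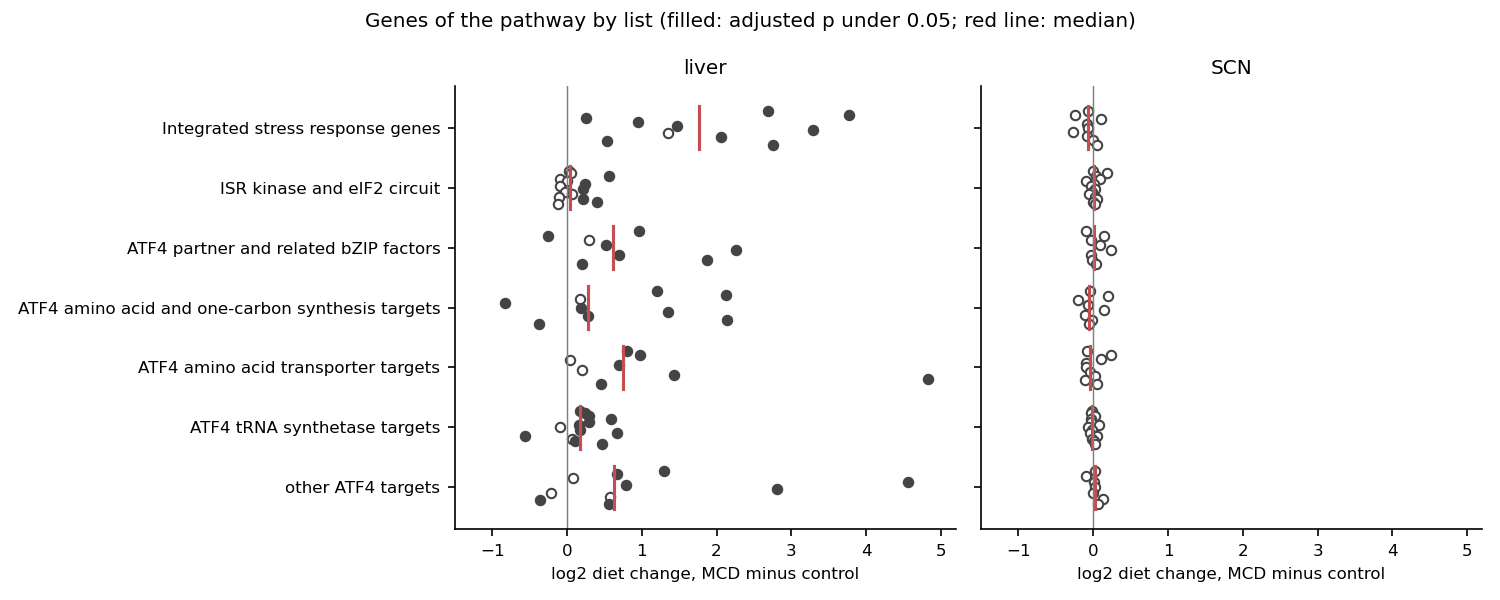
Log2 diet change, MCD minus control (x axis), of the genes of each list (y axis, 1 circle per gene, filled where the adjusted p was under 0.05) in liver (left) and SCN (right), with a red line at the median of the list. In liver the 10 members have the highest median, 1.77 log2, and the kinases and eIF2 circuit the lowest, 0.04; in SCN no circle is filled.

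Exon usage asks whether parts of a gene changed against the rest of it. In liver the Simes test of edgeR called 0 of 9 members tested (3.89% of genes were called) and 0 had an unadjusted p under 0.05. The gene-level F test of edgeR also called 0, with 1, Atf4, at an unadjusted p under 0.05. Phgdh had too few counts for the test. Of the 133 exon bins of the members, 90 were tested. The 8 tested bins of Atf3 lay at -0.32 to -0.06 log2 relative to the rest of the gene, which rose by 3.78 log2. Of the 90 bins, 5 had an unadjusted p under 0.05, near the number this threshold passes among unchanged bins. The share over all 214928 bins tested in liver was not computed. All 5 were lower relative to the rest of their gene, as were bins outside these 5, such as those of Atf3. They were bins 8 (-0.75 log2) and 9 (-1.04) of Trib3, bins 6 (-0.28) and 8 (-0.28) of Atf4 and bin 10 of Sesn2 (-0.22), named after their values were seen. In SCN both tests of edgeR called 0 of 9 members (0.0337% of genes by the Simes test), with 0 at an unadjusted p under 0.05.

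In the SCN the same comparison found no member changed by the diet: edgeR called 0 of 9, as did DESeq2 and limma-voom, and in each 1 of 9, Atf4 in edgeR, had an unadjusted p under 0.05 (of all SCN genes 0.0635% were called, 0.0381% higher and 0.0254% lower). The median change of the 9 members was -0.07 log2, against 0.00 over all genes tested. The intervals, taken as 1.96 SE to each side, are an approximate limit on what could have been missed. For Atf4, Asns, Psat1, Phgdh, Sesn2 and Ddit3 the 95% intervals lay within -0.21 to 0.19 log2. They were wider for the low genes, -0.69 to 0.19 for Atf3, -0.30 to 0.13 for Chac1 and -1.16 to 0.61 for Nupr1, whose value of -0.28 log2 became 0.60 with limma-voom.

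Atf4 in SCN ran from 117 to 175 CPM on control (median 149) and from 124 to 225 CPM on MCD (median 157). The ranges overlapped except for 3 MCD libraries above the highest control, the highest being the female MCD CT04 3. Its change was 0.11 ± 0.05 log2 (edgeR adjusted p = 0.907). Atf3, with 0.559 to 8.34 CPM on control (median 1.68) and 0.849 to 3.96 CPM on MCD (median 1.67), had no MCD library above the highest control. Ddit3 ran from 12.6 to 21.9 CPM on control and from 12.2 to 23.8 CPM on MCD, and Nupr1 from 0 to 4.40 and from 0 to 2.51 CPM, with 2 control and 1 MCD library at 0, where a count of 0 allows 0.0459 to 0.127 CPM. Both overlapped almost fully between the diets.

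Chac1 in SCN ran from 4.48 to 12.8 CPM on control and from 3.51 to 9.47 CPM on MCD. The serine and asparagine enzymes were abundant and steady: Asns ran from 40.0 to 60.1 CPM on control and from 38.4 to 56.5 CPM on MCD, and Psat1 from 55.5 to 78.2 and from 52.3 to 78.1 CPM. Phgdh ran from 32.6 to 45.6 CPM on control and from 27.9 to 45.7 CPM on MCD. The diets overlapped for all 4 genes, and 1 MCD library, of Phgdh, lay above the highest control. At single times no member was called in SCN at any of the 6 times by edgeR or DESeq2, with 0 to 3 of 9 at an unadjusted p under 0.05 per time. Of all SCN genes, 0.00635% were called at CT0, CT16 and CT20 alike, all of them higher, 0.0444% at CT4 and none at CT8 and CT12. None of the 59 genes of the 6 lists measured in SCN was called, and no marker list held a called gene there. The same numbers of members had an unadjusted p under 0.05 with both tools.

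Trib3 was looked up in the deposited exon bins, since the SCN gene table does not list it. Its bins held 176 counts over the 18 control libraries (0 to 20 per library, 0 in 4) and 275 over the 18 MCD libraries (0 to 43, 0 in 3). In CPM of all bins this was 0.245 ± 0.211 on control and 0.350 ± 0.378 on MCD (SD, n = 18 each), well within the spread, and a count of 0 allows 0.0494 to 0.164 CPM in those libraries. In liver the same bins held 0.786 to 18.8 CPM in the 16 control libraries with complete files and 6.64 to 83.4 in the 18 MCD libraries, so Trib3 in SCN lay mostly below the lowest liver library.

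Sesn2 was the member with a 24 h rhythm in SCN, where it ran from 18.8 to 36.2 CPM on control and from 17.5 to 44.7 CPM on MCD. It passed on both diets, and was 1 of 9 members to pass on control (15.1% of genes) and 1 of 9 on MCD (16.1%). On control it was at 32.6, 27.6 and 23.8 CPM at CT0, 36.2, 31.2 and 26.0 CPM at CT4 and 22.4, 22.8 and 18.8 CPM at CT16. On MCD it was at 27.8, 33.6 and 44.7 CPM at CT0, 38.5, 37.9 and 38.2 CPM at CT4 and 18.7, 19.1 and 18.8 CPM at CT16. The libraries of CT0 and CT4 lay above those of CT16 on both diets without overlap. The fitted peak was at CT 3.56 with a range of 0.57 log2 on control (edgeR adjusted p = 0.00224) and at CT 3.52 with 1.09 log2 on MCD (edgeR adjusted p = 1.34e-07). The difference between the diets had an unadjusted p of 0.0116 and an adjusted p of 1.0 (0.0127% of genes passed), so a wider rhythm on MCD was not shown. The control rhythm was lost without the libraries numbered 1 (adjusted p = 0.111) or 2 (0.0736).

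**Figure D4:**
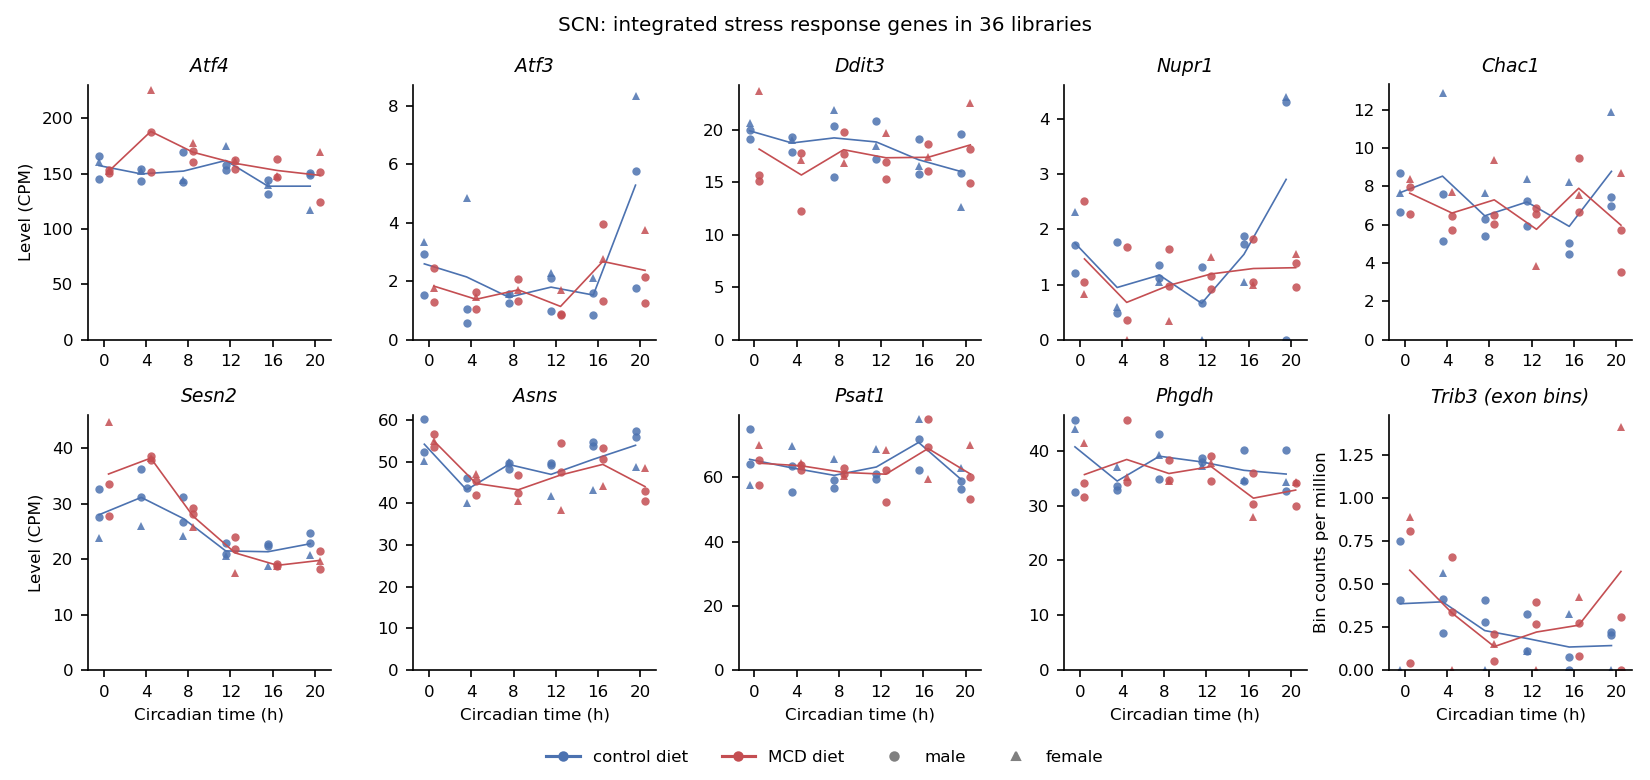
Level in CPM (y axis, from 0, scale differing between panels) of the 9 listed members in the 36 SCN libraries against circadian time in h (x axis), with colours, marks and lines for diet, sex and time means as in the liver plot, and in the last panel Trib3 from exon bins, in CPM of all bins. Control and MCD libraries overlap in each panel, and Sesn2 is highest at CT0 and CT4 on both diets.

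The tissues were compared in 1 fit of all 72 libraries over the 14491 genes in both tables. The labels do not say whether liver and SCN libraries labelled alike came from 1 mouse. The fit held no term for the mouse and treated the libraries as independent. Tissue and collection (dissected lobe against laser-dissected sections) cannot be told apart. The diet effect was smaller in SCN than in liver for 8 of the 9 members measured in both, all but Atf4 (18.9% of genes were called in this direction). The largest differences, SCN minus liver, were -4.01 ± 0.37 log2 for Atf3 (edgeR adjusted p = 4.22e-12), -3.54 ± 0.49 for Nupr1 (1.13e-07) and -2.70 ± 0.29 for Asns (2.19e-10). Psat1, Ddit3, Phgdh, Chac1 and Sesn2 followed at -2.03, -1.54, -1.48, -1.04 and -0.48 log2. Without the libraries numbered 1, the calls of Phgdh (adjusted p = 0.140), Chac1 (0.107) and Sesn2 (0.204) were lost, and that of Phgdh also without those numbered 3 (0.113) and with DESeq2 (0.0514). For Atf4 the difference was -0.14 ± 0.09 log2 (edgeR adjusted p = 0.251), with an interval of -0.32 to 0.04, but it was called with library totals alone (-0.29 log2, adjusted p = 0.00555). That scaling moved the median of all genes from -0.014 to -0.17 log2, and relative to the median gene Atf4 was at -0.13 and -0.12 log2.

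On the control diet 7 of 9 members differed in level between the tissues, as did 90.4% of genes. The CPM below were scaled within each tissue, while the log2 differences rest on the scaling of the joint fit, so they do not match. The serine and asparagine enzymes were far higher in SCN. Phgdh was at 37.4 ± 4.02 CPM in SCN and 0.179 ± 0.285 CPM in liver (SD, n = 18 each), a difference of 7.07 ± 0.40 log2. Asns was at 49.7 ± 5.44 and 1.81 ± 1.96 CPM, and Psat1 at 63.8 ± 6.63 and 3.04 ± 2.50 CPM, with differences of 3.77 ± 0.23 and 3.35 ± 0.22 log2. In the joint fit Ddit3 (0.79 ± 0.13 log2) and Sesn2 (0.55 ± 0.10 log2) were also higher in SCN, and Nupr1 (-1.03 ± 0.39) and Atf4 (-0.34 ± 0.07) were lower. Scaled within each tissue, Atf4 was instead higher in SCN, at 63.5 against 39.2 CPM per kb in liver, while Nupr1 was lower (0.595 against 0.683). All of these differences depend on the scaling, since the median gene was at 0.04 log2 with TMM and at 0.75 log2 with library totals alone. With library totals alone Atf4 was at 0.37 and Atf3 at 0.09 log2 instead of -0.61, Nupr1 lost its call and Chac1 gained one (0.73 log2, edgeR adjusted p = 0.00432, against 0.02). Nupr1 also lost it without control CT08 a (-0.71 log2, adjusted p = 0.0709) or the libraries numbered 1 (0.0890).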

How the data were processed

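Gene counts and exon-bin counts of 72 libraries were analysed. The authors deposited raw counts per gene in 1 table per tissue and raw counts per exon bin in 1 file per library; per the submitters' processing notes, Trimmomatic, HISAT2, StringTie and DESeq2 were used with build GRCm39, and the role of each tool is not given in the sources used here. The kit was a stranded poly-A kit per the labels' protocols, and the strand setting of the counting is not given in the sources used here. Positions and RefSeq promoters are from GRCm38, the build of the reference used, and were used for names, positions and sequences alone. 

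The main fit was edgeR 4.0.16 (quasi-likelihood F test, TMM scaling, filterByExpr with a minimum count of 10, robust, terms for the 12 groups of diet and time and for sex) over the 36 libraries of a tissue, run in R 4.3.3. Diet effects are means of the differences at the 6 times, rhythms are joint tests of the 24 h component, log2 changes use a prior count of 2, and CPM are TMM-scaled. A count of 0 allows up to 3 counts, and this limit covers counting error only. The 95% intervals are 1.96 SE to each side of a change and are approximate, narrower than the F test allows. Exon usage was tested with diffSpliceDGE on the complete files (34 in liver, 36 in SCN; 2 truncated files were not used). Alternatives were DESeq2 1.42.0, limma-voom (limma 3.58.1), other scalings and filters, no sex term, each library or replicate number left out, and the kinds of library. The members and lists were chosen with earlier results of these data known. Besides the 10 members, the text names the 2 called genes per pathway list with the largest absolute log2 diet change and the 5 genes most like the mean of the members; Eif2ak4 and the 5 pathway genes that fell were added after their values were seen. On simulated counts, the liver diet fit over 20249 genes recovered 68 of 100 genes changed by 0.5 log2 and 95 of 100 changed by 1 log2, and the SCN fit over 15759 genes 84 and 100 of 100. These counts were drawn with the same spread between libraries for every gene and without rhythms. The rates check the fit and do not give its power for the members.

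Libraries of a group differed by far more than counting noise (chi-square per degree of freedom of 24.1 or more). The labels do not say whether libraries numbered alike were collected together, so p-values measure the spread between these animals' libraries. Deviations of same-numbered libraries of the diets correlated with a median Pearson r of -0.011 in liver (-0.215 to 0.291) and -0.010 in SCN (-0.171 to 0.254). The r exceeded 0.1 in 5 of 16 and 4 of 16 pairs, not in every pair, so the main fit did not treat numbers as pairs. To ask for every pair is hard to meet, and a batch shared by number was not tested.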

Additional observations from a re-analysis of the deposited data

Results flagged for a closer look

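The diet effect differed between the tissues, in a test of the difference over all 72 libraries, for 8 of the 9 members measured in both. The differences, SCN minus liver, were -4.01 log2 for Atf3, -3.54 for Nupr1, -2.70 for Asns, -2.03 for Psat1, -1.54 for Ddit3, -1.48 for Phgdh, -1.04 for Chac1 and -0.48 for Sesn2. DESeq2 called 7 of these differences, and 37.7% of all genes (19.5% lower).

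The diet effect on liver Psat1 differed between the sexes, by 2.08 log2 (females minus males). The rhythm of liver Trib3 differed between the diets (edgeR adjusted p = 0.00365). Groups of 3 libraries, as all are here, were not searched for single libraries far from the rest.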

How the results depend on the processing

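Of 360 liver diet values of members with 1 library left out, 357 kept their direction and call, and the 3 others were gains of Phgdh. Of 130 other alternatives, 118 did so, 9 lost a call (Atf4, Chac1 or Sesn2) and 3 gained one. In SCN, 316 of 324 and 85 of 90 kept both, and the others changed sign without passing, Nupr1 with limma-voom from -0.28 to 0.60 log2. The replicate block, whose fit leaves out the unnumbered control CT08 a and b and has no sex term, called 9 members in liver (43.9% of genes), with Phgdh gained (2.86 log2, adjusted p = 0.0124) and Atf4 lost (0.23 log2, 0.0513), and 1 member for the control rhythm against 2 (Atf4 lost, 0.197), where 12% of genes were called against 17.8%. For the MCD rhythm it lost Atf4 (0.0641) and gained Atf3 (0.0169), with 28% of genes called against 28.2%. DESeq2 called 2 members for the liver rhythm difference (Atf3 added) and 2 for the sex difference (Asns added), against 1 each, 3 against 2 for the control rhythm (Sesn2 added), 8 against 7 at CT16 and 6 against 5 at CT20; it called 9.96%, 3.66%, 22.5%, 17.1% and 15.6% of genes in these. With library totals alone the tissue difference on control was 0.37 log2 for Atf4, 0.088 for Atf3 and 0.73 for Chac1. With libraries left out, member counts ran from 6 to 32 over all liver times, 1 to 7 at CT0, 1 to 5 at CT4, 0 to 2 at CT8, 0 to 6 at CT12, 1 to 7 at CT16 and 1 to 6 at CT20, while the share of all genes called ran from 0.902% to 14.8% over all times and, in the order of the times, from 0.411%, 1.61%, 0.0392%, 0.264%, 1.58% and 1.16% to 14.8%, 20.6%, 5.86%, 18.4%, 15.3% and 13.8%. They ran from 1 to 2 for the control rhythm, 0 to 5 for the MCD rhythm, 0 to 1 for its difference, 0 to 1 for the sex difference, 0 to 2 for the SCN control rhythm and 5 to 8 for the tissue difference of the diet effect, with 2.76% to 17%, 12% to 30.2%, 0.0196% to 6.01%, 0.0931% to 2.4%, 5.15% to 13.7% and 20.3% to 38.3% of genes called in these. SCN diet values ran from -0.15 to 0.00029 log2 for Ddit3, -0.20 to 0.013 for Chac1, -0.043 to 0.094 for Sesn2 and -0.026 to 0.016 for Psat1, and the tissue difference on control from -0.078 to 0.33 for Chac1. Genes called over the genome numbered 9426 for the liver diet effect against 4583 in the low and 5096 in the high kind of library alone, 263 at CT8 and 1212 without control CT08 a or 656 with DESeq2, and 3081 at CT12 and 6475 with library totals alone. In SCN they numbered 10, 48 with DESeq2 and 0 to 14 without a replicate number. The cause was not tested for any of these. The sex difference without replicate 3 was not run, since no female remains. The likeness of genes to the members was also computed under library totals and without control CT08 a, both chosen after seeing the data. Libraries at 0 limit what can be said of Phgdh in liver and of Nupr1 and Trib3 in SCN. In liver, 1 control library of Asns was at 0 too. The part of depth in this was not tested.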
